A study of Rattus norvegicus with 9 samples.

Results

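Interferon response genes are genes whose transcription is switched on when a cell senses interferon, and 39 of them were followed here in rat lung fibroblasts across alveolar septation, in which the air spaces of the newborn lung are subdivided by new walls. They were chosen by name as a fixed list, and a gene was represented by the brightest of the probe sets that carry its symbol alone. Of the 39 genes, 34 were measured by this rule, among 14217 genes on the array. The 5 without such a probe set were Ddx58, Xaf1, Slfn3, Ifi47 and Gbp5, and they are not analysed here. Fibroblasts were freshly isolated from untreated rat pups at postnatal day 2 (before septation), day 7 (septation under way) and day 21 (septation over). Each day had 3 replicates, each a pool of cells from 1 litter, with 5 pups a pool at day 2 and 4 pups at days 7 and 21. The sources used here do not give the strain or sex of the pups. Dispersed lung cells were left to attach to plastic for a short time and whatever attached was taken as fibroblasts, so other adherent lung cells could be included.

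Interferons are secreted signals that warn neighbouring cells of infection. Type I interferons (the alpha and beta forms) act through their own receptor, JAK kinases and a complex that includes STAT2 and IRF9 and binds a DNA sequence called the interferon-stimulated response element. Interferon gamma, made mainly by T and NK cells, acts through a separate receptor, and its best known DNA element is the gamma-activated site. Type I signalling is best known for proteins that block viruses, and gamma signalling for genes that equip cells to present peptides, such as the immunoproteasome and the peptide transporter, but many of these genes answer to both. In the lung, macrophages as well as fibroblasts carry these genes.

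The sequences in front of the genes hold motifs that many, but not all, of the members have. RefSeq promoter windows of assembly GRCr8, from 250 bases before to 50 after the gene's start, could be matched to 29 of the 34 measured members. The windows of Mx2, Ifit2, Isg15, Dhx58 and Usp18 were not used here. Each window was searched on both strands for the core of the response element, which is GAAA, then 2 bases of any kind, then GAAA again. It was also searched for the longer form, in which the core is followed by CT, and for the gamma-activated site TTCNNNGAA. The stretches below show each kind of arrangement, 5′ to 3′ in the direction of the gene, with the motif in capitals. A core on the opposite strand reads as TTTC, 2 bases and TTTC.

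The first group shows the response element core alone, or as overlapping copies, in front of the member with the largest rise between days 7 and 21 (Ifit3) and of one with a smaller rise (Oas1a), and in front of the factor IRF7. Ifit3 lies at chr1:241527257-241527316 on the plus strand, Oas1a at chr12:41330400-41330465 on the plus strand and Irf7 at chr1:205800058-205800117 on the minus strand.
Ifit3: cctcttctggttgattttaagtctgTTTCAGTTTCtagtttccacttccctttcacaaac
Oas1a: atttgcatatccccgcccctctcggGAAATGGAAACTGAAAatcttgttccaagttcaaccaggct
Irf7: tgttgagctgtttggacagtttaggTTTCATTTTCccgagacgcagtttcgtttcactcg

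The second group shows a gamma-activated site directly before the core. In Parp14, Irgm and Igtp the 2 motifs are separated by 2 bases, and in Bst2 the site overlaps the first of 2 overlapping cores. Parp14 lies at chr11:78408033-78408092 (plus), Irgm at chr10:33742578-33742637 (minus), Igtp at chr10:42874919-42874978 (plus) and Bst2 at chr16:18255058-18255123 (minus).
Parp14: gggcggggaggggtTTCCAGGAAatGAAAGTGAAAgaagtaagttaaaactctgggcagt
Irgm: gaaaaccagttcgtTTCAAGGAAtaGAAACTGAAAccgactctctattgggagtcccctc
Igtp: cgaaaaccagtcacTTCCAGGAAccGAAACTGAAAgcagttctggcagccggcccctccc
Bst2: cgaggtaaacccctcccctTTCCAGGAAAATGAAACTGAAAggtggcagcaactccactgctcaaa

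The third group holds genes usually listed as gamma-induced, and in each of these stretches the capitals mark the response element core and not the gamma-activated site. Gbp2 lies at chr2:234005671-234005730 (plus), Psmb10 at chr19:50743275-50743390 (minus), Tap2 at chr20:4652303-4652362 (minus) and Tap1 at chr20:4668630-4668689 (minus).
Gbp2: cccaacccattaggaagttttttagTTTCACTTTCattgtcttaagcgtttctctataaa
Psmb10: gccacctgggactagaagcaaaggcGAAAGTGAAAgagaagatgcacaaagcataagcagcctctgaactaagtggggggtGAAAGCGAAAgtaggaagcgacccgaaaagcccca
Tap2: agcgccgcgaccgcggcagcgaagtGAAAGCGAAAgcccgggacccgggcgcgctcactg
Tap1: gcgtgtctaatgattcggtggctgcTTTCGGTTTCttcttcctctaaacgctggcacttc

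The last pair shows the gamma-activated site alone, in front of 2 transcription factors. Irf1 lies at chr10:38417768-38417827 and Irf8 at chr19:65699079-65699157, both on the plus strand, and Irf8 holds 2 copies.
Irf1: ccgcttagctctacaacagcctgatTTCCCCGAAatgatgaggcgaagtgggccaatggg
Irf8: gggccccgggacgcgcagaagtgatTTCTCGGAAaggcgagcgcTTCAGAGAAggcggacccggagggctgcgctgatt

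Over all members with a window, 18 of 29 (62.1%) held the core, against 3.92% of 33469 RefSeq promoter windows of the same length and 2.99% of the 11700 windows of genes on the array. The longer form was found in 6 of 29 members (20.7%), against 0.278% of all windows. The gamma-activated site was found in 10 of 29 members (34.5%), against 8.87% of all windows. By role, the core stood in 10 of 15 type I antiviral genes, 5 of 6 gamma-induced genes, both IRG GTPases and 1 of 5 transcription factors (Irf7), while 3 of 5 transcription factors (Irf9, Irf1 and Irf8) held the gamma-activated site. Igtp, Irgm, Parp14, Bst2, Oas1a, Oas1b and Psmb8 held both. A match describes letters in this window and was not tested as a binding site.

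**Figure D1:**
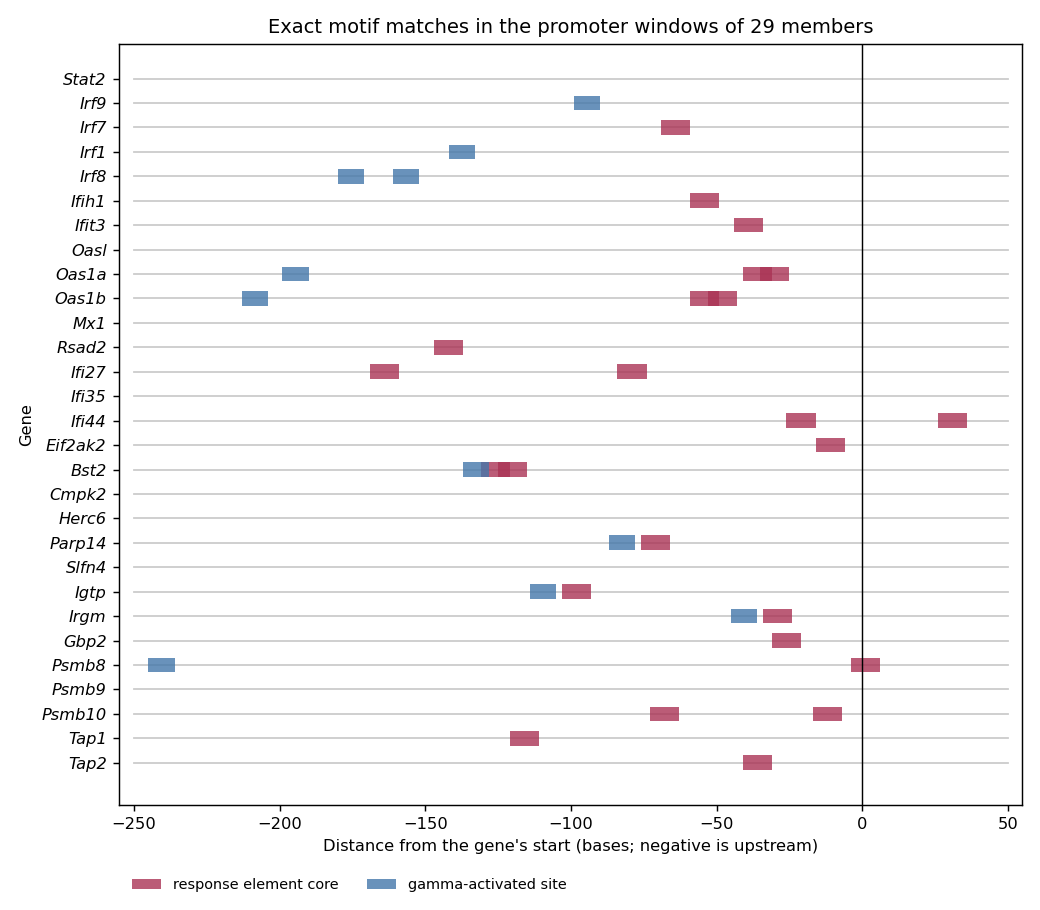
Exact motif matches in the RefSeq promoter windows of 29 members; the x axis is the distance in bases from the gene's start, with negative values upstream, and each grey line is 1 gene's window. Red boxes mark the response element core (18 of 29 members) and blue boxes the gamma-activated site (10 of 29 members).

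At day 7 most of these genes stood lower than at day 2. Of the 34 measured members, 17 fell and 0 rose. A gene is said to have fallen or risen where limma, fitted over all 31042 probe sets and 9 arrays, gave a Benjamini-Hochberg adjusted p under 0.05, and is otherwise not called. Over all 14217 genes, 4.41% fell and 7.02% rose in this comparison. At an unadjusted p under 0.05, 1 member was higher (Irf1) and 23 were lower. The median change of the members was -0.73 on the log2 scale, against 0.07 over all genes. The members that fell were 10 of 18 antiviral effectors, 2 of 5 transcription factors (Irf7 and Irf9), 1 of 2 RNA sensors (Ifih1), Slfn4, Irgm, Gbp2 and Psmb8. Leaving out 1 array at a time left 13 to 17 members lower.

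Between day 7 and day 21 the direction turned, and 27 members rose and 1 fell. The background was 13.7% of genes higher and 24.4% lower. The median change of the members was 1.43, against -0.01 over all genes. The gene that fell was Ifi27, a small protein of the inner mitochondrial membrane. The 6 not called were Stat2, Irf1, Oas1b, Mx2, Ifi35 and Ifi44. Without any 1 array, 24 to 26 members were higher.

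Across the whole interval, 21 members were higher at day 21 than at day 2 and 1 was lower (again Ifi27), against 8.8% of all genes higher and 15.3% lower. Their median change was 0.72, against 0.02 over all genes. The day 21 level therefore lay above the day 2 level for most, but not all, of the members. This count depended on the day 2 litters more than the other 2 did. It was 12 without day 2 replicate 1, 12 without replicate 2 and 17 without replicate 3. Calls were lost over the whole array as well. Over all probe sets, those called higher went from 2118 to 1661, 1186 and 1906 in the same fits. Of the 22 called members, 12 kept their call whichever array was left out.

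Put together, 17 members were lower at day 7 than at day 2 and then higher at day 21, a shape found in 3.76% of all genes (535 of 14217). Another 10 were not called over the first interval and rose over the second, as did 9.9% of all genes. Ifi27 was not called and then fell, and 6 members were called in neither interval. The 2 intervals share the day 7 arrays, so a low reading on a day 7 array lowers the first change and raises the second.

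**Figure D2:**
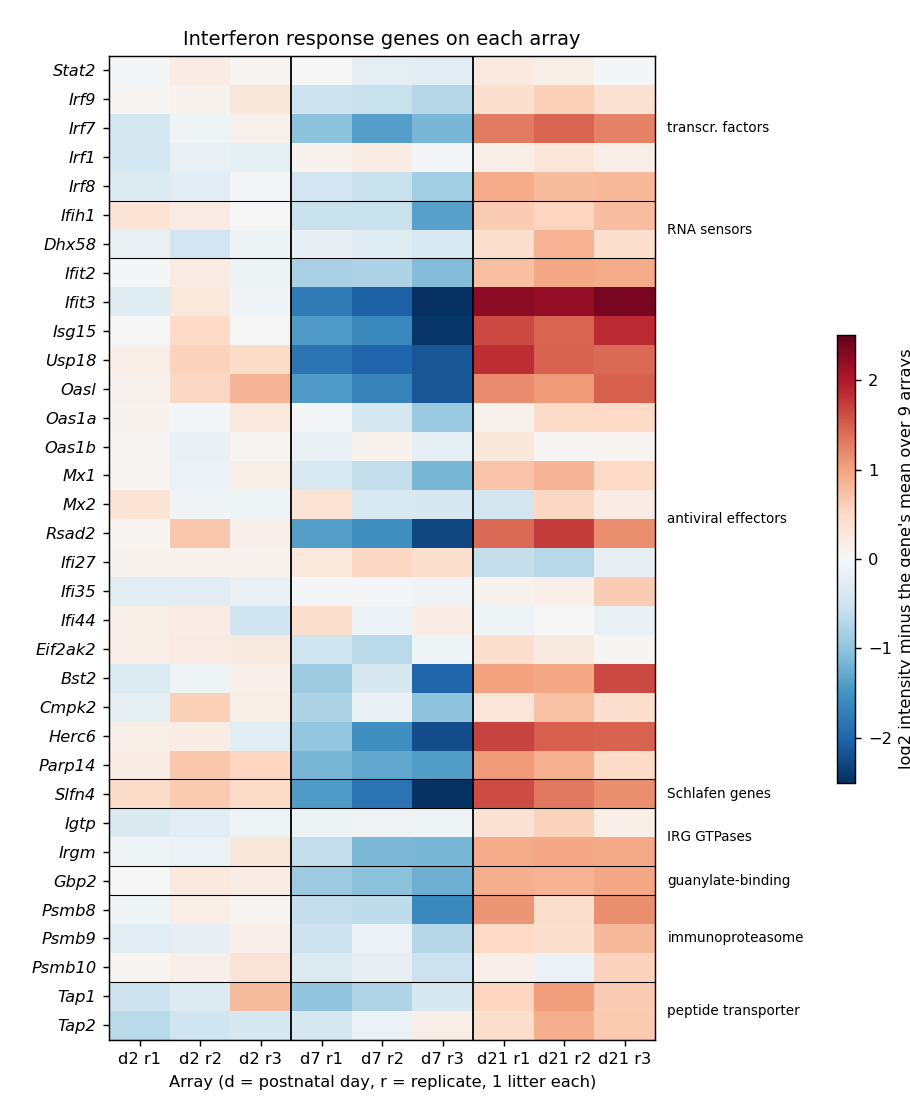
Each of the 34 measured members (rows, grouped by role) on each of the 9 arrays (columns, d for postnatal day and r for replicate litter), as log2 intensity minus the gene's mean over all 9 arrays; colours stop at the ends of the scale. The day 7 columns are blue and the day 21 columns red for most effectors and for Slfn4, while Ifi27 runs the other way. Ifit3, Isg15, Usp18, Herc6, Rsad2, Oasl and Slfn4 are among the deepest.

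Among the transcription factors, IRF7, the factor that amplifies type I interferon production, changed most. Irf7 read log2 6.77, 7.09 and 7.31 on the day 2 arrays (replicates 1 to 3, here and below), 6.18, 5.83 and 6.07 at day 7 and 8.51, 8.67 and 8.45 at day 21. The 3 days did not overlap, and day 21 was the highest. A lack of overlap between 3 and 3 arrays was common. From day 2 to day 7 it held for 20 members that were lower and 3 higher, and for 1695 and 3001 of all 14217 genes. From day 7 to day 21 it held for 1 member that was lower and 28 higher, and for 4358 and 2920 of all genes. Irf7 fell 2.05-fold to day 7 (log2 change -1.03 ± 0.17 SE, limma adjusted p = 0.0047) and rose 5.73-fold to day 21 (2.52 ± 0.17, limma adjusted p = 1.31e-06).

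Irf9, the DNA-binding partner of STAT2, read 7.10, 7.16 and 7.36 at day 2, 6.55, 6.52 and 6.35 at day 7 and 7.497, 7.68 and 7.45 at day 21. Day 7 lay apart from both other days, and the day 21 arrays all lay above the day 2 arrays by a small margin. Irf9 fell by 0.73 ± 0.15 (limma adjusted p = 0.0102) and then rose by 1.07 ± 0.15 (limma adjusted p = 0.000166), and its day 21 level was not called against day 2 (0.33 ± 0.15, limma adjusted p = 0.14). Stat2 itself ranged from 6.91 to 7.44 over the 9 arrays and was not called in any comparison on its brighter probe set. Its dimmer probe set rose by 0.99 ± 0.22 between days 7 and 21 (limma adjusted p = 0.00415).

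Irf8, a factor that myeloid cells need to develop and that is induced by interferon gamma, read 8.21, 8.30 and 8.52 at day 2, 8.08, 7.996 and 7.69 at day 7 and 9.48, 9.36 and 9.38 at day 21. The drop to day 7 was not called (-0.42 ± 0.16, limma adjusted p = 0.129), whereas the rise to day 21 was (1.49 ± 0.16, limma adjusted p = 2.51e-05). Irf1, a direct target of interferon gamma signalling, read 9.94, 10.19 and 10.16 at day 2, 10.47, 10.57 and 10.34 at day 7 and 10.53, 10.69 and 10.54 at day 21. It had no dip: all day 7 arrays lay above all day 2 arrays, and the day 7 and day 21 arrays overlapped. Only its change over the whole interval was called (0.49 ± 0.15, limma adjusted p = 0.0364), and that call was lost in 8 of the 9 fits that leave out 1 array.

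The RNA sensors detect viral RNA in the cytoplasm. Ifih1, which encodes the sensor MDA5, read 6.57, 6.44 and 6.22 at day 2, 5.67, 5.68 and 4.88 at day 7 and 6.86, 6.77 and 7.02 at day 21, with no overlap between days. Ifih1 fell 2.00-fold (-1.003 ± 0.21, limma adjusted p = 0.0136) and rose 2.78-fold (1.47 ± 0.21, limma adjusted p = 0.000246), and without day 2 replicate 2 the fall was not called (limma adjusted p = 0.0515). Dhx58, which encodes LGP2, a regulator of the other sensors, read 5.04, 4.75 and 5.10 at day 2, 5.02, 4.92 and 4.85 at day 7 and 5.62, 6.10 and 5.65 at day 21. Days 2 and 7 overlapped and day 21 stood above both, and it rose by 0.86 ± 0.17 between days 7 and 21 (limma adjusted p = 0.00232). Its 2 dimmer probe sets differed from it at day 7, with changes from day 2 of -0.67 ± 0.20 and -0.72 ± 0.23, neither of them called.

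The antiviral effectors held the largest rises between days 7 and 21. Ifit3, which helps the cell recognise foreign RNA, read 7.46, 8.02 and 7.69 at day 2, 6.01, 5.72 and 4.86 at day 7 and 9.99, 9.96 and 10.14 at day 21. No 2 days overlapped, and the arrays of day 7 lay much farther apart (SD 0.60) than those of day 21 (SD 0.097). It fell 4.58-fold (-2.19 ± 0.26, limma adjusted p = 0.00107), rose 22.6-fold (4.50 ± 0.26, limma adjusted p = 4.54e-07) and ended 4.94-fold above day 2 (2.30 ± 0.26, limma adjusted p = 0.000121). By size of rise between days 7 and 21, Ifit3 ranked 6 among 14217 genes.

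Usp18, the enzyme that removes ISG15 from proteins and dampens signalling at the type I receptor, read 6.04, 6.46 and 6.35 at day 2, 4.06, 3.90 and 3.74 at day 7 and 7.73, 7.36 and 7.30 at day 21. The days did not overlap, and all 3 day 7 arrays lay below log2 4.25, a level that 25% of the values do not reach and here called the low end. Usp18 fell by 2.38 ± 0.18 (limma adjusted p = 8.63e-05) and rose by 3.56 ± 0.18 (limma adjusted p = 1.90e-07) in the fit. With day 7 at the low end, these sizes are not exact.

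Isg15, a small ubiquitin-like tag joined to proteins during infection, read 7.65, 8.15 and 7.63 at day 2, 6.23, 6.04 and 5.21 at day 7 and 9.29, 9.11 and 9.503 at day 21. Its fall was 3.96-fold (-1.98 ± 0.25, limma adjusted p = 0.00141) and its rise 11.1-fold (3.47 ± 0.25, limma adjusted p = 2.03e-06). Rsad2, which encodes viperin, an enzyme that makes a nucleotide that stops viral RNA synthesis, read 7.58, 8.21 and 7.65 at day 2, 6.15, 5.997 and 5.24 at day 7 and 8.95, 9.28 and 8.69 at day 21. It fell 4.04-fold (-2.02 ± 0.26, limma adjusted p = 0.00139) and rose 9.04-fold (3.18 ± 0.26, limma adjusted p = 3.98e-06). For Ifit3, Isg15 and Rsad2 alike the lowest of the 9 arrays was day 7 replicate 3, and the days did not overlap.

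**Figure D3:**
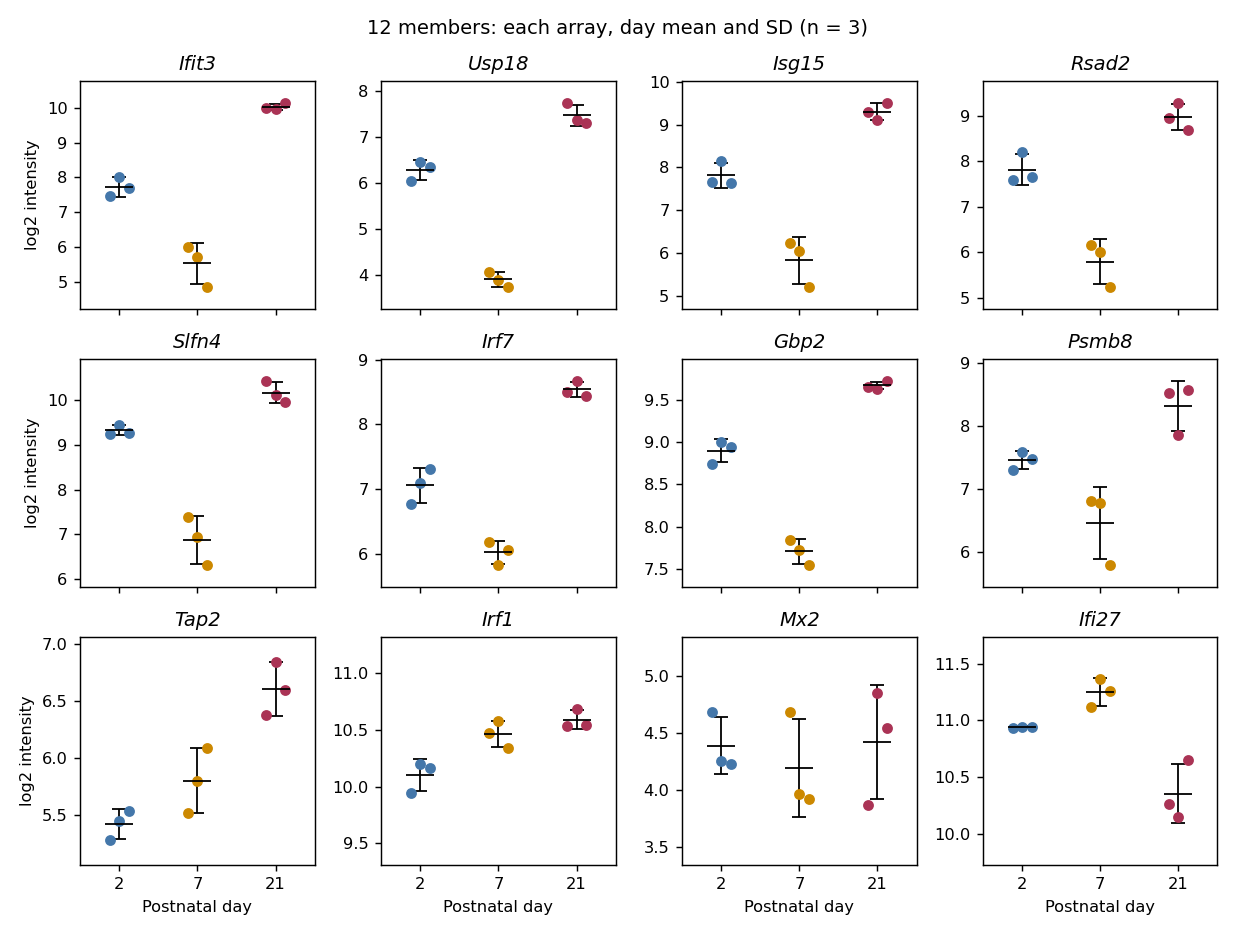
Log2 intensity of 12 members by postnatal day, with a point per array and the day mean and SD (n = 3); each panel has its own y axis, and levels of different genes are not comparable. Ifit3, Usp18, Isg15, Rsad2, Slfn4, Irf7, Gbp2 and Psmb8 are lowest at day 7 and highest at day 21, Tap2 and Irf1 show no dip, Mx2 overlaps on all days and Ifi27 is lowest at day 21.

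The same shape held for 6 more effectors. Oasl, an oligoadenylate synthetase-like protein, changed by -2.23 and then 2.99. Herc6, the rodent ligase that attaches ISG15, changed by -1.59 and 3.13. Its day 7 mean of 4.24 lay at the low end, so these sizes are not exact. Parp14, an ADP-ribosyltransferase, changed by -1.75 and 2.09, but its second probe set stood at 0.06 ± 0.20 for day 7 against day 2, so the dip rests on 1 of its 2 probe sets. Ifit2, a relative of Ifit3, changed by -0.90 and 1.77 (its second probe set by -0.97 and 1.76). Mx1, a GTPase that traps viral particles, fell by 0.73 ± 0.20 with a limma adjusted p of 0.0438 and Eif2ak2, the double-stranded RNA kinase PKR, fell by 0.63 ± 0.18 with a limma adjusted p of 0.0459; each of these 2 falls was not called in 7 of the 9 fits without 1 array.

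Bst2, Cmpk2 and Oas1a were not called at day 7 and rose to day 21. Bst2, which tethers virus particles to the cell surface, had the widest spread between litters of any effector at day 7, with 7.35, 7.82 and 6.21 on the 3 arrays against 7.88 to 8.36 at day 2 and 9.18 to 9.87 at day 21. The days did not overlap, and it rose 4.94-fold from day 7 (2.30 ± 0.34, limma adjusted p = 0.000287) and 2.48-fold from day 2 (1.31 ± 0.34, limma adjusted p = 0.0199), the latter a call that was lost in 3 of the 9 fits without 1 array. Cmpk2, a mitochondrial nucleotide kinase, rose by 1.14 ± 0.25 and Oas1a, an RNA-triggered oligoadenylate synthetase, by 0.83 ± 0.22. The probe sets of Cmpk2 differed for day 21 against day 2. The brighter was not called (0.32 ± 0.25) and the dimmer was (0.95 ± 0.18, limma adjusted p = 0.0039).

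The remaining effectors, Ifi27, Ifi35, Ifi44, Mx2 and Oas1b, did not rise from day 7 to day 21 by the test. Ifi27 read 10.93, 10.95 and 10.95 at day 2, 11.12, 11.36 and 11.26 at day 7 and 10.26, 10.15 and 10.65 at day 21. It stood highest at day 7, though not called there (0.30 ± 0.16, limma adjusted p = 0.312), and fell 1.85-fold to day 21 (-0.89 ± 0.16, limma adjusted p = 0.00118). Ifi44 ranged from 5.84 to 6.78 with all days overlapping, Mx2 from 3.87 to 4.85 with all days overlapping, and Oas1b lay below the low end on every array (3.05 to 3.56). Ifi35 was called only over the whole interval (0.52 ± 0.17, limma adjusted p = 0.0472), a call that was lost in 7 of the 9 fits without 1 array.

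Slfn4 encodes a Schlafen protein that is abundant in myeloid cells. It read 9.25, 9.45 and 9.27 at day 2, 7.38, 6.94 and 6.32 at day 7 and 10.43, 10.12 and 9.95 at day 21, with no overlap between days. The fall was 5.44-fold (-2.44 ± 0.24, limma adjusted p = 0.000516), and the rise was 9.75-fold (3.28 ± 0.24, limma adjusted p = 1.84e-06). Its second probe set lay below the low end on all arrays and was not called.

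The IRG GTPases attack the vacuoles that shelter intracellular microbes, and the 2 measured members differed from each other. Irgm read 6.11, 6.06 and 6.50 at day 2, 5.61, 5.09 and 5.07 at day 7 and 7.14, 7.17 and 7.15 at day 21. The days did not overlap, and it fell 1.96-fold (-0.97 ± 0.18, limma adjusted p = 0.00793) and rose 3.73-fold (1.90 ± 0.18, limma adjusted p = 1.38e-05). Igtp read 6.08, 6.16 and 6.34 at day 2, 6.32, 6.35 and 6.33 at day 7 and 6.82, 7.02 and 6.62 at day 21. Its days 2 and 7 overlapped (0.14 ± 0.15), and its rise of 0.49 ± 0.15 to day 21 (limma adjusted p = 0.0299) was not called in 5 of the 9 fits without 1 array. The dimmer probe set of Igtp stood at 0.21 ± 0.22 for day 21 against day 7 and was not called in any comparison. The promoters of Irgm and Igtp hold the same pair of motifs at the same spacing, as printed above.

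Gbp2, a guanylate-binding protein that coats microbes, read 8.75, 9.01 and 8.94 at day 2, 7.84, 7.72 and 7.55 at day 7 and 9.66, 9.64 and 9.73 at day 21. The 3 days lay well apart, with a fall of 2.29-fold (-1.19 ± 0.15, limma adjusted p = 0.00118) and a rise of 3.92-fold (1.97 ± 0.15, limma adjusted p = 2.23e-06).

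Psmb8, Psmb9 and Psmb10 encode the catalytic subunits that replace the standard ones to make the immunoproteasome, which cuts proteins into peptides for presentation. Psmb8 read 7.31, 7.59 and 7.48 at day 2, 6.81, 6.78 and 5.80 at day 7 and 8.52, 7.86 and 8.57 at day 21. Its days did not overlap, but its fall of 0.99 ± 0.27 (limma adjusted p = 0.0433) was not called in 6 of the 9 fits without 1 array, whereas its rise of 1.85 ± 0.27 (limma adjusted p = 0.000272) was called in all 9.

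Psmb9 read 7.14, 7.198 and 7.53 at day 2, 6.89, 7.27 and 6.70 at day 7 and 7.90, 7.82 and 8.21 at day 21, so that days 2 and 7 overlapped and day 21 stood above. It rose by 1.02 ± 0.19 from day 7 (limma adjusted p = 0.00139). Psmb10 read 7.47, 7.54 and 7.73 at day 2, 7.07, 7.21 and 6.88 at day 7 and 7.54, 7.27 and 7.99 at day 21. Its day 7 arrays all lay below day 2, and day 21 overlapped day 2. Its rise of 0.55 ± 0.19 (limma adjusted p = 0.0497) sat at the threshold and was not called in 8 of the 9 fits without 1 array. Of the standard subunits that these replace, Psmb5 stood at -0.01 and then -0.39, and Psmb7 at -0.04 and then 0.26, none of them called, and Psmb6 is not analysed here.

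Tap1 and Tap2 form the transporter that carries peptides into the endoplasmic reticulum. Tap1 read 6.40, 6.58 and 7.70 at day 2, 5.93, 6.17 and 6.52 at day 7 and 7.47, 7.97 and 7.56 at day 21. Day 2 replicate 3 stood more than 1 unit above the other day 2 arrays and within the day 21 range. Tap1 was called only between days 7 and 21 (1.46 ± 0.30, limma adjusted p = 0.00288), and without day 2 replicate 3 it was also called as higher at day 21 than at day 2 (1.18, limma adjusted p = 0.00537). Its second probe set, dimmer, was not called and stood at 0.14 ± 0.19 for day 21 against day 7.

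Tap2 read 5.28, 5.45 and 5.54 at day 2, 5.52, 5.80 and 6.09 at day 7 and 6.38, 6.85 and 6.60 at day 21. It showed no dip, with days 2 and 7 overlapping at their edge, and it rose 1.75-fold from day 7 (0.81 ± 0.19, limma adjusted p = 0.00546) and 2.28-fold from day 2 (1.19 ± 0.19, limma adjusted p = 0.00111). In the RefSeq annotation of GRCr8, Tap2, Psmb8, Tap1 and Psmb9 lie side by side on chromosome 20, in the class II region of the histocompatibility complex, with the Tap2 and Psmb9 starts 16704 bases apart. Tap1 (minus strand) and Psmb9 (plus strand) run away from each other with 456 bases between their starts, and the core printed for Tap1 lies 112 bases from its start and 336 bases from that of Psmb9. For day 7 against day 2 these neighbours read 0.38 (Tap2), -0.99 (Psmb8), -0.69 (Tap1) and -0.33 (Psmb9), of which only Psmb8 was called.

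**Figure D4:**
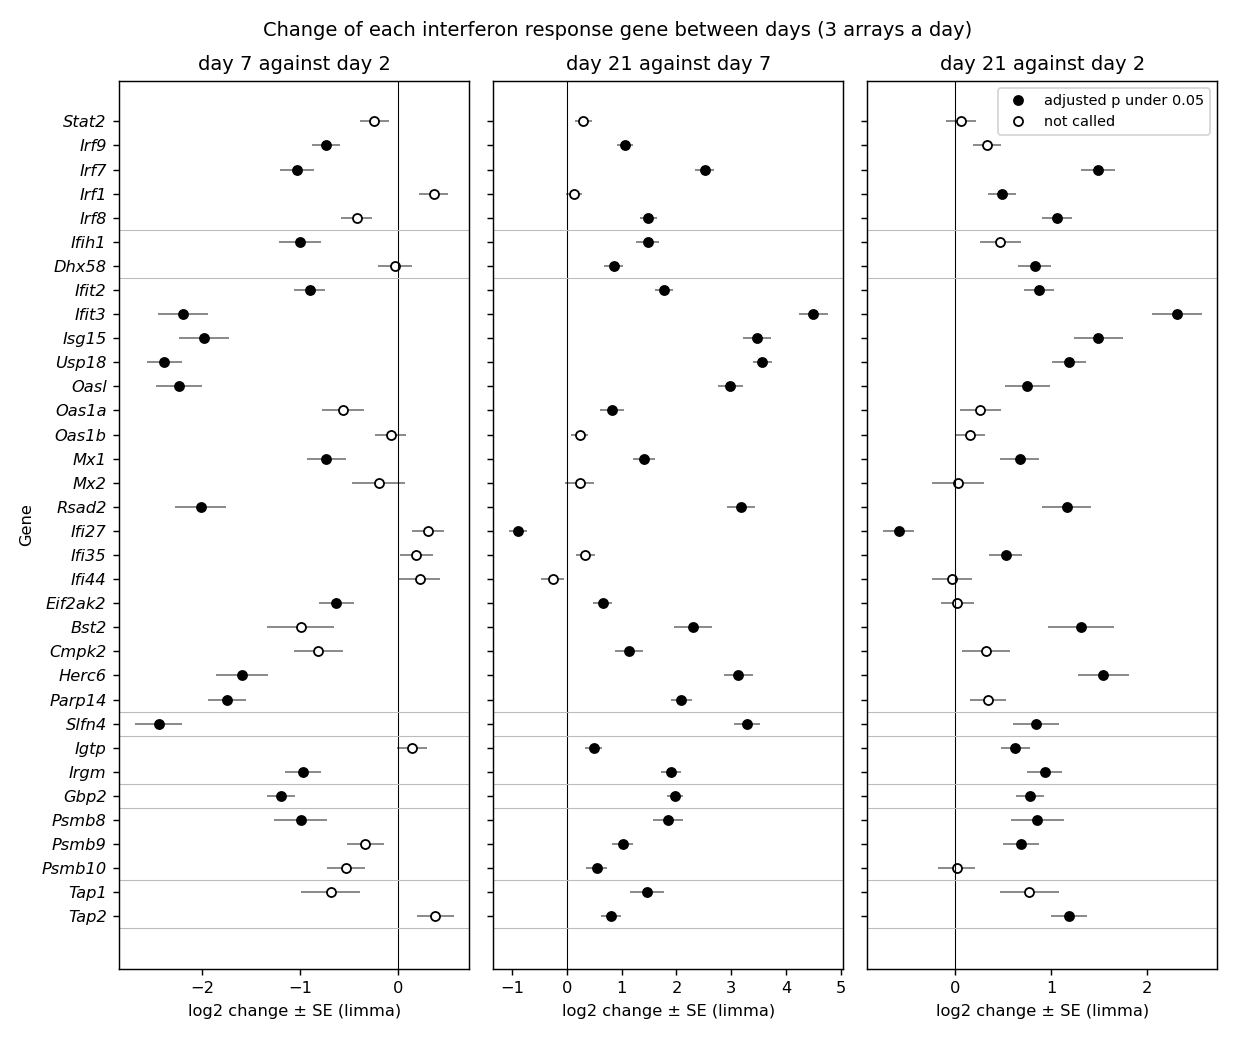
Log2 change of each of the 34 measured members in the 3 comparisons, with the SE from limma (3 arrays a day); filled points have an adjusted p under 0.05 and open points are not called. In the comparison of days 7 and 2 the filled points all lie below 0 (17 members), and in the comparison of days 21 and 7 all but Ifi27 lie above 0 (27 members).

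The type I antiviral genes (sensors and effectors, 20 of 22 measured) were set against the genes classed as gamma-induced (Gbp2, the Psmb and the Tap genes, 6 of 7 measured), and both lists were lowest at day 7 and highest at day 21. From day 2 to day 7, 11 of the 20 type I genes fell, with a median change of -0.86 over all 20, and 2 of the 6 gamma-induced genes (Gbp2 and Psmb8) fell, with a median of -0.61. From day 7 to day 21, 15 type I genes rose and 1 fell (median 1.44), and all 6 gamma-induced genes rose (median 1.24). Over the whole interval 11 type I genes were higher and 1 lower (median 0.60), and 4 gamma-induced genes were higher (median 0.77). The same medians over all genes were 0.07, -0.01 and 0.02. Of all genes, 4.41% fell and 7.02% rose from day 2 to day 7, and 24.4% fell and 13.7% rose from day 7 to day 21. Over the whole interval 8.8% of all genes were higher and 15.3% lower. The lists were written with results of these data known and their difference was not tested.

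On single arrays, the mean log2 level of the type I list ran from 6.85 to 7.00 at day 2, 5.64 to 6.16 at day 7 and 7.55 to 7.62 at day 21. The gamma-induced list ran from 7.06 to 7.49, 6.59 to 6.83 and 7.90 to 8.11. Neither list overlapped between days. The type I mean minus the gamma-induced mean was -0.59 to -0.21 at day 2, -0.95 to -0.52 at day 7 and -0.49 to -0.28 at day 21. Days 2 and 7 overlapped in this difference, days 7 and 21 did not by a margin smaller than the within-day SD of 0.19, and its level has no meaning of its own because probe sets differ in brightness. Without day 7 replicate 3 the gap between the median changes for day 21 against day 7 moved from 0.20 to -0.038, so that array set its sign.

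**Figure D5:**
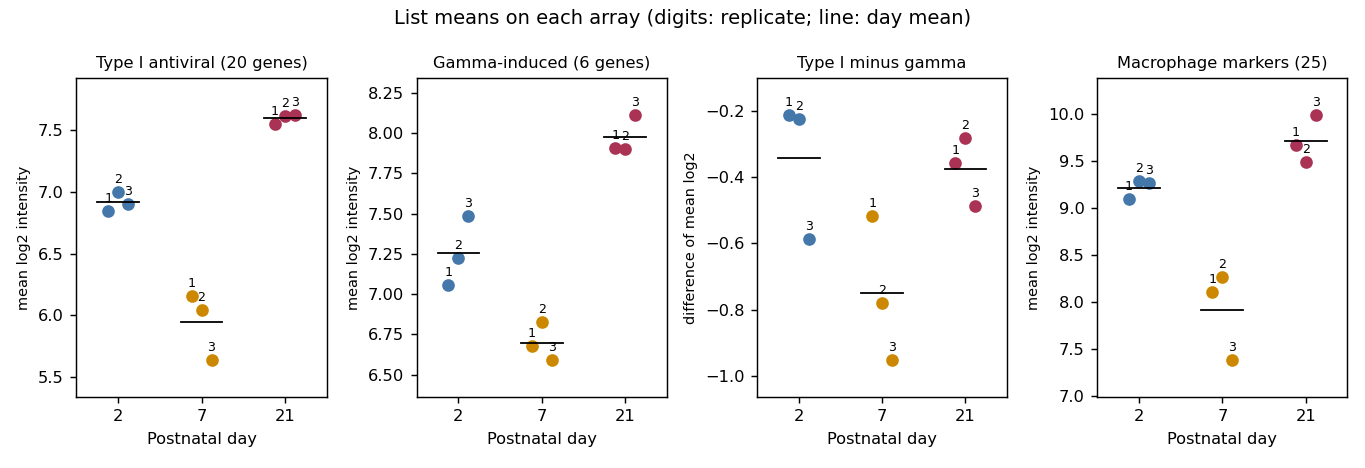
Mean log2 intensity on each array of the type I antiviral genes (20), the gamma-induced genes (6), their difference, and the macrophage markers (25), by postnatal day; digits give the replicate litter and lines the day mean. The first 2 lists and the macrophage markers are each lowest at day 7 and highest at day 21, and day 7 replicate 3 is the lowest array in all 4 panels.

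Genes that act before the response were followed by lists fixed for their role. Of the 8 interferon genes listed, 3 were measured, and all had day means below the low end: Ifnb1 averaged 3.85, 3.67 and 4.09 on days 2, 7 and 21, Ifng 2.88, 3.00 and 3.08, and Ifnk 3.22, 3.06 and 3.33. None of the 3 was called by limma in any comparison, and 1 (Ifnb1, day 21 against day 7) had an unadjusted p under 0.05. Of 16 measured receptor and signalling genes, 1 fell and 0 rose to day 7, and 7 rose and 0 fell to day 21, against 4.41% of all genes lower to day 7 and 13.7% higher to day 21; at an unadjusted p under 0.05, 0 were higher in the first comparison and 0 lower in the second.

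Among these, both chains of the type I receptor were called between days 7 and 21. Ifnar2 fell by 0.62 (limma adjusted p = 0.0466) and then rose by 0.59 (limma adjusted p = 0.0212), and Ifnar1 rose by 0.64 between days 7 and 21 (limma adjusted p = 0.00673). The gamma receptor chains were not called, with Ifngr1 at -0.40 and -0.02 and Ifngr2 at -0.45 and 0.40. Ifngr2 changed in the same directions as Ifnar2, and a difference between the receptors was not tested. Jak1, Jak2 and Tyk2, the receptor kinases, were not called either. Inhibitors of signalling were among the genes that rose: Socs3 rose by 2.37 (limma adjusted p = 5.42e-05), Ptpn6, a phosphatase of blood cells, by 1.99 (limma adjusted p = 0.000141) and Socs1 by 0.81 (limma adjusted p = 0.00201) between days 7 and 21.

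Of 12 measured genes that induce interferon, 3 fell to day 7 (Tlr7, Trim25 and Irf5) and 6 rose and 1 fell to day 21, beside 4.41% of all genes lower to day 7 and 13.7% higher and 24.4% lower to day 21, the shares that also apply to the next 3 lists. Tlr7, an endosomal RNA receptor, changed by -1.41 and then 1.64, Trim25 by -0.97 and 1.39, and Irf5 by -0.67 and 1.56. Tlr4, the endotoxin receptor, was the one that fell (-0.77). Of 36 measured interferon-induced genes outside the 39, 12 fell to day 7, and 22 rose and 3 fell to day 21. Cxcl11 and Cxcl10, attractants of T cells, rose by 3.41 and 2.08 and Ifit1, whose day 7 arrays all lay below the low end, by 3.37 between days 7 and 21, while Ube2l6, the enzyme that passes ISG15 on, fell by 0.98, Ifitm2 by 0.82 and Ifi44l by 0.74. Of 13 measured class I presentation genes, 1 fell to day 7 and 6 rose to day 21, led by the class I heavy chain genes RT1-S3 (2.34) and RT1-CE5 (2.18), with B2m, the light chain, at 0.96. Of 13 measured standard proteasome genes, 0 rose and 3 fell to day 21 by limma, a share of lower genes close to that over all genes (24.4%), with a median of -0.28, and at an unadjusted p under 0.05, 0 were higher and 5 lower.

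Markers of other cells were followed on the same arrays. The shares over all genes were 7.02% higher and 4.41% lower to day 7, and 13.7% higher and 24.4% lower from day 7 to day 21. For day 21 against day 2 they were 8.8% higher and 15.3% lower. Of 25 measured macrophage markers 17 fell to day 7, 24 rose to day 21 and 6 were higher at day 21 than at day 2, and their summed intensity ran from 27512 to 31340 at day 2, 9232 to 15358 at day 7 and 33217 to 45969 at day 21. The defining markers were bright, Lyz2 at day means of 12.35 to 13.34 and Cd68 of 8.23 to 10.70, with Cd163 below the low end on each day mean. In bulk RNA of this kind, fewer macrophages and less RNA per macrophage cannot be told apart. Nor can members expressed in macrophages be told apart from members expressed in fibroblasts. Whether any of these macrophage markers answer to interferon themselves was not tested, and the macrophage covariate used below is their mean. Of 7 measured granulocyte markers, 4 fell to day 7 (list median -2.46), 3 rose to day 21, and 1 was higher and 3 lower at day 21 than at day 2, with summed intensities of 1285 to 3662, 193 to 383 and 351 to 934 on the 3 days. Of 12 measured endothelial markers, 2 rose to day 7 and 9 fell to day 21 (list median -1.02), with sums of 990.0 to 1259, 1401 to 1695 and 644 to 856. Of the 5 measured markers of plasmacytoid and other dendritic cells, 1 fell to day 7 (list median 0.04), and 2 rose and 1 fell to day 21. Markers of T and NK cells, the usual makers of interferon gamma, numbered 17, of which 6 rose from day 7 to day 21. Their summed intensity was 295 to 401, 332 to 492 and 646 to 731 on the 3 days. Their mean log2 level was 4.06, 4.22 and 4.88, which is below the low end at days 2 and 7. Mast cell markers also rose, 8 of 9 from day 7 to day 21. Of 14 fibroblast markers, 1 rose and 1 fell to day 7 and 2 rose and 4 fell to day 21, shares close to those over all genes, and Col1a1, Col1a2, Col3a1 and Vim averaged from 12.21 to 13.18 on every day, though Thy1 was low at 4.97 to 5.10.

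Litters of a day also differed. Day 7 replicate 3 was the lowest of its day for 27 of 34 members, 17 of 20 type I genes and 22 of 25 macrophage markers, against 44.8% of all genes. At day 2, replicate 1 was the lowest for 22 of 34 members, 9 of 20 type I genes and 15 of 25 macrophage markers, against 27% of all genes. The median within-day SD of the members was 0.17 at day 2, 0.29 at day 7 and 0.20 at day 21, against 0.19, 0.19 and 0.20 over all genes, so the members' litters were farthest apart at day 7. The part of the macrophage markers in these litter differences, and that of granulocyte and endothelial markers in the members' changes, was not tested. The largest SDs at day 7 were those of Bst2 (0.83), Herc6 (0.62), Ifit3 (0.60), Psmb8 (0.57), Isg15 (0.54) and Slfn4 (0.53).

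With the macrophage mean of each array as a covariate in limma, no member was called between days 7 and 2 or between days 21 and 7. At an unadjusted p under 0.05 that fit gave 1 member higher and 8 lower in the first comparison (7.6% and 5.65% of all genes) and 15 higher and 1 lower in the second (5.42% and 9.26% of all genes). The covariate itself differs between days, and it raised the median SE of the members from 0.19 to 0.39 and 0.52. In these 2 comparisons it left 0 and 26 genes called in all. The median change of the members was -0.17 and 0.89 with the covariate, and Psmb8, Psmb9, Psmb10, Bst2 and Oas1a, each called as higher at day 21 than at day 7 without it, read -0.34, -0.070, -0.52, -0.71 and -0.25.

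Days 2 and 21 had closer macrophage means, and there the covariate cost less precision (median SE 0.22). In that fit, 10 of 34 members were higher at day 21 and 0 lower, against 3.47% of all genes higher, with 16 and 1 at an unadjusted p under 0.05. They were Ifit3 (1.79 ± 0.23, limma adjusted p = 0.00125), Irf7 (1.54 ± 0.22, limma adjusted p = 0.00254), Tap2 (1.38 ± 0.22, limma adjusted p = 0.00431), Herc6, Usp18, Isg15, Irf8, Dhx58, Ifit2 and Gbp2. The other members that were higher at day 21 without the covariate were not called with it. Of these, Irgm read 0.83 (limma adjusted p = 0.0564) and Igtp 0.69 (limma adjusted p = 0.0524), close to their changes of 0.93 and 0.63 without it. Rsad2 read 0.88, Slfn4 0.53, Bst2 0.48, Mx1 0.47, Irf1 0.40, Psmb9 0.39, Ifi35 0.38, Oasl 0.35 and Psmb8 0.25 with the covariate.

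The changes were also set beside the promoter motifs. From day 2 to day 7, 9 of the 18 members with a core fell (median -0.83), as did 5 of the 11 without one (median -0.73). Over the whole interval, 9 of the 18 were higher and 1 lower (median 0.70), and 8 of the 11 were higher (median 0.67). Of all array genes with a window, 4.42% fell to day 7, and 8.44% were higher and 15.6% lower over the whole interval. From day 7 to day 21, 15 of the 18 members with a core rose and 1 fell (median 1.47), and 8 of the 11 without one rose (median 1.14). Slfn4, Oasl and Herc6, among the members with the largest changes, had no core in their window, while Ifi27 and Ifi44, which did not rise, had 2 cores each and the longer form. Over all array genes with a window, 13.7% were higher at day 21 than at day 7, against 20% of the 350 genes with the core and 40.5% of the 37 with the longer form. These shares include the members.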

How the data were processed

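The authors deposited intensity values per probe set for 9 Affymetrix arrays of biotin-labelled RNA, which the submitters' processing notes credit to affy's RMA; no version is given there. The deposited intensities are linear, although RMA returns log2 values, so log2 was taken. Array medians were 37.9 to 50.4, so the values are not plain RMA output, which would be equalised between arrays; what else was done is unknown. Changes of dim probe sets may be compressed, and the number of arrays limits the precision.

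Of 31099 probe sets, 57 controls were left out and 31042 tested with limma 3.58.1 in R 4.3.3, with 1 mean per day over all 9 arrays. The fit had 6 residual degrees of freedom and 5.69 prior ones. Tests were two-sided, and p-values were adjusted over all probe sets by Benjamini-Hochberg. In the platform annotation, 20826 probe sets had 1 symbol, 436 several and 9780 none, and the last 2 kinds were not named. The brightest probe set stood for a gene, and 10 members had several. The members and lists were chosen with earlier results of these data known, so lists were described by counts and medians and not tested. Values on every array are given for up to 4 called members a role with the largest change, and Ifi27 and Bst2 were added after their values were seen. Up to 4 called genes with the largest change could be named from each pathway list, and receptors, JAK and interferon genes whatever their call. The alternatives tried are listed at the end.

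Replicates are different litters within a day. The labels do not tie a litter's number on 1 day to that on another, so the numbers were not taken to pair arrays. Deviations of same-numbered arrays correlated at 0.0766 to 0.405 between days 2 and 7, and at -0.237 to 0.051 in the pairs with day 21. Differently numbered arrays were not compared in this way. No arrays were identical. The fit was tested on simulated data. Promoter windows and positions are from RefSeq (GRCr8), not from the arrays.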

Additional observations from a re-analysis of the deposited data

How the results depend on the processing

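Apart from the macrophage covariate, the direction of each member's called changes held in the alternatives fitted gene by gene: a further quantile normalization, centring on the array median, leaving out dim probe sets, the mean of a gene's probe sets, eBayes with trend and robust options, only the arrays of the days compared, the litter number as a block, and leaving out each array. Wider type I and gamma-induced lists moved their medians by less than the spread between replicates. Centring moved the share of probe sets higher among those called from 61.5% to 41.5% for day 7 against day 2 and from 36.6% to 48% for day 21 against day 7, and quantile normalization gave 48.5% for the latter and 47.3% in place of 36% for day 21 against day 2; centring shifted the median of all probe sets to -0.05 and 0.13.

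With the macrophage mean as covariate, 0 members were lower at day 7 than at day 2, 0 were higher and 0 lower at day 21 than at day 7, and 10 were higher and 0 lower at day 21 than at day 2. Both shapes over the 3 days then held 0 members. The type I medians became -0.20, 0.87 and 0.36 and the gamma-induced medians 0.060, 0.69 and 0.51 in the same order. Among called changes, signs turned for Ifih1 (0.016) and Psmb8 (0.60) in the first comparison and for Oas1a (-0.25), Bst2 (-0.71), Psmb8 (-0.34), Psmb9 (-0.070) and Psmb10 (-0.52) in the second, and 17 changes that were not called turned sign as well. The covariate differs between days, so these values also carry larger SEs. Quantile normalization moved the gamma-induced median for day 21 against day 7 to 1.45. The mean of a gene's probe sets moved the gamma-induced medians to -0.43 and 0.91 and the gap between lists for day 21 against day 7 to 0.56. Centring left 0 members lower at day 21 than at day 2. The cause of these shifts was not tested.

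Without 1 array at a time, the members higher at day 21 than at day 2 numbered 12 to 22 and those lower 0 to 1. The type I median ran from -1.01 to -0.69 for day 7 against day 2 and from 1.20 to 1.58 for day 21 against day 7, and the gamma-induced median from -0.76 to -0.37 for day 7 against day 2. The gap between the lists ran from -0.48 to -0.11 and from -0.038 to 0.43, turning sign without day 7 replicate 3. Calls held without any 1 array for 13 of 17, 25 of 28 and 12 of 22 members in the 3 comparisons.

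With the litter number as a replicate block, 15 members were lower at day 7 than at day 2, 26 were higher at day 21 than at day 7 and 18 were higher at day 21 than at day 2, against 17, 27 and 21. The labels do not tie these numbers across days, and not all same-numbered arrays deviated together. With 3 arrays a day, probe sets near the low end, such as those of the interferon genes, Oas1b and Mx2, could show large changes only.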
